A study of Mus musculus with 31 samples.

Results

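Mitochondrial protein quality control was followed through 10 of the 20544 genes counted in single mouse embryos at the 2-cell stage. They were Hspe1 and Hspd1, the parts of the mitochondrial chaperonin, Hspa9 and Grpel1 of the mitochondrial Hsp70 system, Trap1, the Hsp90 of mitochondria, and the proteases or protease subunits Clpp, Clpx, Lonp1, Yme1l1 and Afg3l2. The set was chosen by name after the difference between the groups had been seen, with Hspe1 at its head, so that difference is given for these genes as a description with no test.

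The study asked how sperm energy restriction and recovery (SER) before in vitro fertilization changes the early embryo. Embryos carried no engineered allele, and came from sperm of C57BL/6J males aged 12 to 14 weeks and oocytes of superovulated CD1 females aged 8 to 10 weeks. For 16 control-generated embryos, sperm were kept in complete TYH medium. For 15 SER-generated embryos, sperm were held without glucose and pyruvate until they stopped moving and were then given both back. All 31 embryos were lysed singly at 32 h after insemination and sequenced by a modified Smart-seq3 protocol, which reads polyadenylated RNA along its whole length.

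Most mitochondrial proteins are made in the cytosol and cross both membranes unfolded. Inside, the Hsp70 protein encoded by Hspa9 pulls them in and binds them, Grpel1 helps it release ADP, and the barrel of Hspd1 (Hsp60) with its lid Hspe1 (Hsp10) encloses them while they fold. Proteins that fail are degraded in the matrix by Lon and by ClpXP, in which Clpx unfolds and Clpp cuts, and in the inner membrane by the AAA proteases built from Afg3l2 and Yme1l1. In the 2-cell embryo the mitochondria, and much of the mRNA for their proteins, come from the oocyte.

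Total counts ran from 532945 to 2085222 in control- and from 642321 to 3088396 in SER-generated embryos, and the geometric mean total was 1.504 times higher in the SER group. All 13 markers of oocytes and 2-cell embryos had counts in both groups, with a summed level, in counts per 1000000 counts of the embryo (CPM), of 2904 to 13011 in control- and 4091 to 7513 in SER-generated embryos. The 9 markers of cumulus and granulosa cells summed to at most 97.9 CPM in all embryos but control replicate 5, where they reached 1567 CPM, nearly all from Cyp11a1 at 1423 CPM. Of these 9, only Ptx3 was at 0 in every control embryo. The 7 sperm markers summed to at most 30.9 CPM (Odf1 and Smcp at 0 in every control embryo), and the 5 macrophage markers to at most 24.6 CPM in control embryos and 152 CPM in SER embryos. CPM are shares of the counts of a whole embryo, so fewer cells of a kind and less RNA per cell cannot be told apart. The study used 3 batches of embryos, but the batch of each embryo was not given in the sources used here, so no batch term could be fitted and the part of batch in the results was not tested. Unsupervised clustering of the embryos, with the number of groups set to 3, gave groups of 21, 8 and 2, the last being control replicate 4 and SER replicate 15. The profiles of these embryos and of control replicate 3 were the least like the median embryo (Pearson r across genes of 0.56, 0.51 and 0.64), and results found to rest on them are given with and without them.

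In the genome, Hspe1 and Hspd1 lie head to head. In GRCm38, Hspe1 occupies chr1:55088132-55091307 on the plus strand and Hspd1 occupies chr1:55077835-55088243 on the minus strand. Their RefSeq start sites are 216 bases apart, with another start of Hspd1 only 95 bases from that of Hspe1. For the first pair of starts the promoter windows, each from 250 bases before to 50 bases after a start, shared 285 bases. Of the other members, Grpel1 lies at chr5:36464998-36474080, Trap1 at chr16:4039971-4077827, Clpp at chr17:56990305-56996188, Clpx at chr9:65294260-65330658, Lonp1 at chr17:56614297-56626887 and Yme1l1 at chr2:23156369-23199260. RefSeq windows were found for 8 of the 10 members. In the shared stretch lay a run of heat shock units (TTC and GAA alternating, each pair 2 bases apart) and single copies of the letters TGCAAT, the core bound by C/EBP and CHOP, and GCATGCG, the core bound by NRF1. The stretches of 30 bases around these are shown because they lie in the promoter stretch that both chaperonin genes have in common. Both are on the plus strand of GRCm38.p6, with the motifs in capitals, and both fall within a transcript annotated for Hspd1.
Heat shock run, chr1:55088051-55088080: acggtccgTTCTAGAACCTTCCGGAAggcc
CHOP and NRF1 cores, chr1:55087940-55087969: ccggggcccTGCAATctGCATGCGgcgcgc

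These letters were also counted in all 32817 RefSeq windows read, on both strands. TTCNNGAA was present in 8.51% of them, GAANNTTC in 7.86%, TGCAAT in 8.40%, GCATGCG in 3.57%, and at least 3 alternating heat shock units in 0.603%. The run in the chaperonin window overlaps CCGGAAG, the core bound by ETS factors, which was present in 8.86% of windows. Of the other members with a window, Clpp held TTCNNGAA overlapping CCGGAAG just after its start, Grpel1 held CCGGAAG and GCATGCG, Yme1l1 held CCGGAAG, Clpx held GCATGCG, and Trap1 and Lonp1 held none of these letters. The 100 bases before the starts of Clpx and Clpp are shown because the pair makes up 1 protease and its mRNAs varied together between embryos. Capitals mark GCATGCG, read on both strands as an overlapping pair. The plus strand of GRCm38.p6 is given for each.
Clpx, chr9:65294160-65294259: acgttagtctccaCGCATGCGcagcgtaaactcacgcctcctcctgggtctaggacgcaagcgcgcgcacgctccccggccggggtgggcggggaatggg
Clpp, chr17:56990164-56990263: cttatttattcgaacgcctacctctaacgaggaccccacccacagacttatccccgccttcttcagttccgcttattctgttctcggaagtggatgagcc

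The order of the members was read per length, as CPM per kilobase of exon (RPKM), over all 31 embryos. Hspa9 was highest with a median of 84.8 RPKM, followed by Clpx at 73.0, Clpp at 65.7, Lonp1 at 60.9, Hspd1 at 40.8 and Hspe1 at 35.0 RPKM. Grpel1 at 20.9, Trap1 at 13.8, Yme1l1 at 11.4 and Afg3l2 at 6.37 RPKM were lower. No neighbouring pair in this order differed by more than the spread between embryos, since the mean log2 ratio of each pair was smaller than its SD. Hspa9 exceeded Clpx in 21 of 31 embryos, and Hspd1 exceeded Hspe1 in 20 of 31. Within the chaperonin, Hspe1 exceeded Hspd1 per length in 8 of the 16 control embryos and in 3 of the 15 SER embryos, and the median log2 ratio of Hspe1 to Hspd1 was 0.00 in control and -0.78 in SER embryos. This ratio is a description too, since it contains the difference the set was chosen on.

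Hspe1, the lid of the chaperonin, was lower in SER-generated embryos. Its lowest, median and highest levels were 34.0, 68.4 and 355 CPM in the 16 control embryos. In the 15 SER embryos they were 10.9, 33.2 and 72.0 CPM. The groups overlapped, but 14 of 15 SER embryos lay below the control median, 8 lay below every control embryo, and 7 of 16 control embryos lay above every SER embryo. The fitted log2 fold change of SER over control was -1.35 (SE 0.33). Control replicates 3 and 1, at 355 and 135 CPM, were the highest of all embryos, and these also had the highest sums of oocyte and 2-cell markers, 13011 and 12894 CPM. The part of this in the Hspe1 difference was not tested. Without control replicate 3 the log2 fold change was -0.97 (SE 0.27), and without both it was -0.84 (SE 0.26). Counts of Hspe1 were 14 to 364 per embryo, with none under 10.

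Hspd1, the barrel that Hspe1 closes, was lower on average and overlapped more. It ran from 38.3 through a median of 146 to 344 CPM in control embryos. In SER embryos it ran from 45.9 through 97.4 to 200.8 CPM. No SER embryo fell below all controls and 3 control embryos lay above every SER embryo, yet 14 of 15 SER embryos were below the control median. The log2 fold change was -0.57 (SE 0.25). With log2 library size as a covariate it was -0.18 (SE 0.26), and with 5 surrogate variables -0.14 (SE 0.21). The highest value was in control replicate 5, the embryo with the Cyp11a1 counts, and without it the log2 fold change was -0.45 (SE 0.24). Hspe1 and Hspd1 also share sequence with processed pseudogenes. Of the 30-base words in their exons, 31.003% for Hspe1 and 53.8% for Hspd1 occur in another annotated gene, among them Hspe1-ps3 and Hspd1-ps3, so reads from these stretches can be lost when only unique alignments are kept. The genes also overlap by 112 exon bases on opposite strands, 7.60% of Hspe1 and 4.24% of Hspd1, and the strand setting of the counting was not given in the sources used here.

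**Figure D1:**
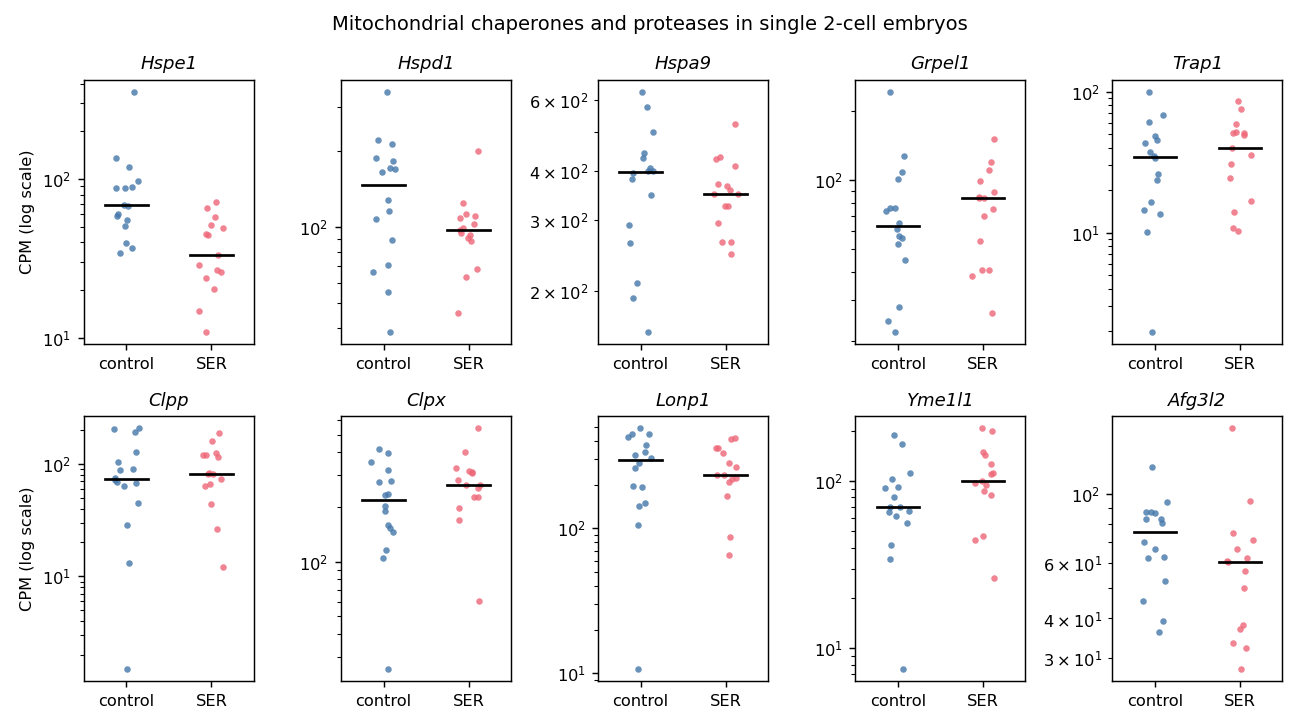
CPM of each gene in every embryo, on a log axis that differs between panels, with 1 point per embryo (16 control in blue, 15 SER in red) and a bar at the group median. The Hspe1 panel has 8 SER embryos below all controls, while every other panel but Afg3l2 has none, and single control embryos sit far below the rest for Trap1, Clpp, Clpx, Lonp1 and Yme1l1.

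Of the Hsp70 system, Hspa9 was highest per length and had an SD between embryos, pooled over both groups, of 0.48 on the log2 scale, the smallest of the set. In control embryos alone Afg3l2 had a smaller SD. Hspa9 lay at 157, 396 and 631 CPM (lowest, median, highest) in control and at 248, 350 and 525 CPM in SER embryos. The ranges overlapped almost entirely, with 11 of 15 SER embryos below the control median and a log2 fold change of -0.13 (SE 0.19). Grpel1, the nucleotide exchange factor of Hspa9, lay at 21.8, 63.4 and 243 CPM in control and 26.5, 83.6 and 150 CPM in SER embryos. Here 10 of 15 SER embryos were above the control median, while the log2 fold change was 0.00 (SE 0.28). The highest Grpel1 value was again in control replicate 5, without which the log2 fold change was 0.20 (SE 0.27). Exons of Grpel1 overlap those of Tada2b on the opposite strand over 411 bases, 11.7% of its exon length.

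Trap1, a chaperone of the Hsp90 family, had the fewest counts of the set. It lay at 1.97, 34.6 and 99.8 CPM in control and at 10.2, 39.6 and 85.5 CPM in SER embryos. The groups overlapped, 9 of 15 SER embryos were above the control median, and the log2 fold change was 0.09 (SE 0.37). The highest value was in control replicate 5, without which the log2 fold change was 0.24 (SE 0.37). The lowest value rested on 2 counts and 3 of the 31 embryos had fewer than 10, so differences of this gene were poorly resolved at this depth.

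The subunits of ClpXP had estimates near 0 or above it. Clpp, the cutting subunit of ClpXP, lay at 1.51, 73.5 and 206 CPM in control and 12.1, 81.1 and 188 CPM in SER embryos, with a log2 fold change of -0.05 (SE 0.37). Clpx, its unfolding partner, lay at 25.7, 218 and 414 CPM in control and 60.8, 264 and 540 CPM in SER embryos. For Clpx, 12 of 15 SER embryos were above the control median and the log2 fold change was 0.26 (SE 0.26), about its own standard error. Control replicate 4 was the lowest control and SER replicate 15 the lowest SER embryo for both subunits.

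Lonp1, the Lon protease, lay at 10.7, 295 and 490 CPM in control and at 65.8, 233 and 422 CPM in SER embryos. Its log2 fold change was -0.11 (SE 0.29), and 4 control embryos lay above every SER embryo. The lowest value was in control replicate 3, the embryo with the highest Hspe1. Without this embryo the Lonp1 log2 fold change was -0.20 (SE 0.24).

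Of the inner-membrane proteases, Yme1l1, the subunit facing the intermembrane space, lay at 7.54, 69.9 and 188 CPM in control and 26.5, 101 and 206 CPM in SER embryos. As for Clpx, 12 of 15 SER embryos were above the control median, and the log2 fold change was 0.36 (SE 0.30). Afg3l2, a subunit facing the matrix, lay at 36.1, 75.5 and 122 CPM in control and 27.6, 60.7 and 162 CPM in SER embryos. It was below the control median in 13 of 15 SER embryos and below all controls in 3, with a log2 fold change of -0.26 (SE 0.23). Both groups overlapped for each of these genes.

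**Figure D2:**
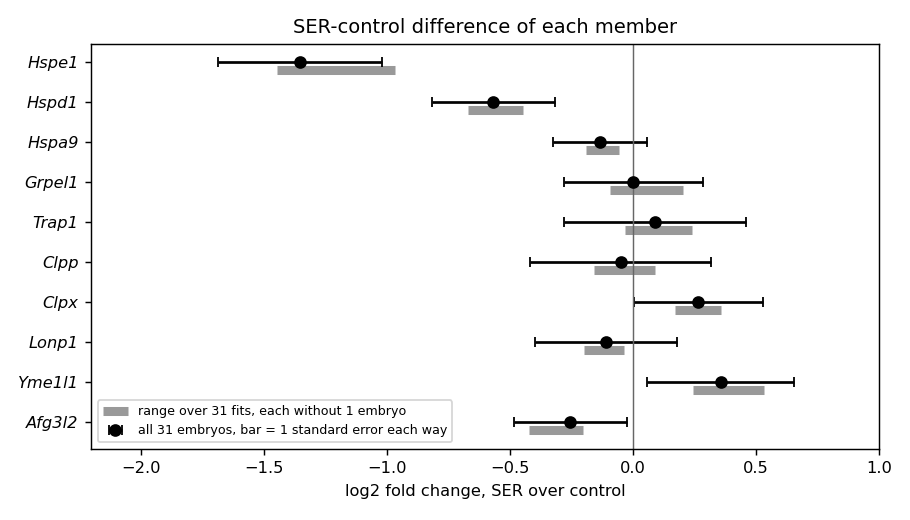
Log2 fold change of SER over control for each gene from edgeR (points, bars 1 standard error each way) and its range when each of the 31 embryos was left out in turn (grey). Hspe1 at -1.35 and Hspd1 at -0.57 lie lowest, and the other 8 genes lie between -0.26 and 0.36.

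With edgeR's quasi-likelihood test over 8571 genes, 0 genes of the whole table passed an adjusted p of 0.1 (0% of those tested), and 491 had an unadjusted p under 0.05. All 10 members passed the filter on low counts, 0 were called, and 2 had an unadjusted p under 0.05. DESeq2 gave an adjusted p to 7241 genes and called 49 of them, 0.677%, of which 1, Hspe1, was a member. These counts are set beside each other without a reading, since the set was chosen on this contrast. Over the 10 members the median log2 fold change was -0.08, beside 0.02 over all tested genes.

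The rest of mitochondrial proteostasis was followed through 36 further genes, of which 31 passed the filter. In the SER group 12 of these were estimated higher and 19 lower, 0 were called by edgeR and the median log2 fold change was -0.11. Over all 8571 tested genes 4515 were estimated higher and 4056 lower. DESeq2 called 3 of the list, Hscb, Immp1l and Ubl5, all with lower estimates. Of the 49 genes it called in all (0.677%), 41 were lower. These counts are given without a reading, since the list was written with earlier results of these data known. Among the co-chaperones and import motor of Hspa9, values ran from 0.29 (SE 0.32) for Timm44, which anchors the motor at the channel, to -1.09 (SE 0.34) for Hscb, the co-chaperone of iron-sulfur cluster assembly. By edgeR the adjusted p of Hscb was 0.418. Among the AAA proteins they ran from 0.12 (SE 0.47) for Bcs1l, an assembly factor of complex III, to -0.25 (SE 0.24) for Atad3a. Of the remaining membrane and intermembrane-space proteases, Spg7, the partner of Afg3l2, was at 0.08 (SE 0.49) and Atp23 at -1.09 (SE 0.49).

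Prohibitins surround the Afg3l2 protease. Among them and Stoml2, which was listed with them, values ran from 0.18 (SE 0.25) for Phb2 to -0.34 (SE 0.30) for Stoml2. Among the peptidases that trim imported proteins, Xpnpep3 was at 0.52 (SE 0.39) and Immp1l, a subunit of the inner membrane peptidase, at -1.26 (SE 0.38), with an edgeR adjusted p of 0.403. Immp1l had a median of 92.3 CPM in control and 61.3 CPM in SER embryos. Among regulators of the mitochondrial stress response, Eif2ak1, the kinase that relays mitochondrial stress to translation, was at 0.58 (SE 0.26) and Atf5, a transcription factor of this response, at -0.99 (SE 0.55). Ubl5, a ubiquitin-like protein, was at -0.96 (SE 0.26) with an edgeR adjusted p of 0.403, and had medians of 464 CPM in control and 318 CPM in SER embryos. None of these passed the edgeR threshold.

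The spread between embryos within a group was not used in choosing the members, so it was tested. With all embryos, the SD of log2 CPM was smaller in the SER group for 9 of 10 members, and for 7 of 10 without control replicate 3, without control replicate 4, or without both and SER replicate 15. The SDs in control and SER embryos lay furthest apart for Clpp (1.53 and 0.97), Lonp1 (1.20 and 0.74) and Hspd1 (0.84 and 0.48). For Lonp1 the gap rested on control replicate 3, without which the SD in control embryos was 0.59, below that in SER embryos. For Clpp it depended on which embryos were left out. The SD of Clpp in control embryos was 1.05 without control replicate 4, beside 0.97 in SER embryos. Without control replicates 3 and 4 and SER replicate 15 its SDs were 1.09 and 0.73. Leaving out control replicate 4 alone put the SDs of Clpx (0.63 and 0.67) and Yme1l1 (0.69 and 0.78) in the other order. Without control replicates 3 and 4 and SER replicate 15 they were 0.65 and 0.42 for Clpx, and 0.72 and 0.65 for Yme1l1. For Hspd1 the SD in control embryos was 0.85 without control replicate 3 and 0.84 without control replicate 4. For Hspe1 the SDs were 0.90 and 0.76 with all embryos, and that of the controls was 0.62 without control replicate 3. Afg3l2 had the smaller SD in control embryos, 0.42 beside 0.63, with and without these embryos. By limma on absolute deviations from the group median, 0 of 8571 genes (0%) passed for a difference in spread, with 255 at an unadjusted p under 0.05. Of the 10 members 0 passed. The deviation of Hspd1 from its group median was smaller in SER embryos by 0.37 (SE 0.16) on the log2 scale, with an adjusted p of 1.00. Over all tested genes the estimate was smaller in the SER group for 54.0%. It was smaller for 44.4% without control replicate 3, 46.1% without control replicate 4, and 48.5% without both and SER replicate 15. In each case 0 genes were called, with 220, 312 and 344 at an unadjusted p under 0.05. The control group also held the embryos with the lowest values of Trap1, Clpp, Clpx, Lonp1 and Yme1l1.

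**Figure D3:**
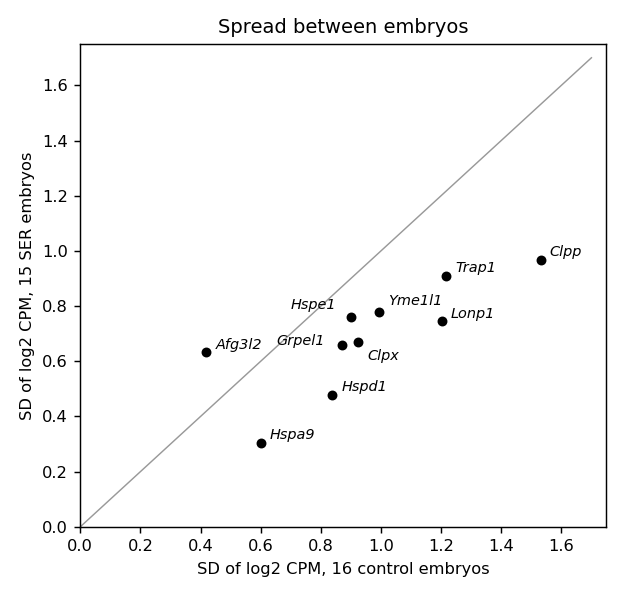
SD of log2 CPM over the 15 SER embryos (vertical) against that over the 16 control embryos (horizontal) for each gene, with the line of equality. Points below the line varied less between SER embryos, which holds for 9 of 10 genes with all embryos and for 7 of 10 without control replicate 3 or without control replicate 4.

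Set against the 500 genes nearest in mean level, Afg3l2 was among the steadiest between embryos, with a within-group SD of 0.53 on the log2 scale beside a median of 0.89 for genes of like level (percentile 3.6). Hspa9 was at percentile 15.0. Clpp, with an SD of 1.29 beside 0.86, was at percentile 84.4 and Lonp1 at 76.6. Without control replicate 4 Clpp was at percentile 69.2, and without control replicate 3 Lonp1 was at 51.8. Without both of these embryos and SER replicate 15, Clpp was at 81.4 and Lonp1 at 57.8. Hspe1 lay at percentile 38.8, and at 21.2 without control replicate 3.

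Co-variation between embryos was then examined, after removal of the group means. Hspe1 and Hspd1 encode parts of 1 machine and share a promoter stretch, but a relation between their levels did not pass the test. Over 31 embryos Pearson r was 0.30 (permutation p = 0.102) and Spearman rho 0.24 (permutation p = 0.197), 2-sided with 100000 resamples. Adjusted over the 46 relations computed among the members and with library size, p was 0.360 and 0.537. Without control replicates 15 and 2, the embryos farthest from the median of Hspd1, r was 0.13. Within control embryos r was 0.44 and rho 0.46 (permutation p = 0.0829 and 0.0787, n = 16). Within SER embryos they were -0.01 and 0.03 (permutation p = 0.977 and 0.924, n = 15). The difference between the groups was not tested. Within the estimated clusters of 21 and 8 embryos r was 0.31 and 0.50 (permutation p = 0.177 and 0.206). The relation of Hspe1 to the library total did not pass it either (r = -0.17, rho = -0.16, permutation p = 0.366 and 0.382, adjusted p = 0.673 and 0.707).

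Across all genes, limma with group and Hspe1 as terms called 720 of 8570, of which 280 (3.27%) varied with Hspe1 in the same direction and 440 (5.13%) in the opposite direction. Of the 9 other members, 0 were among the 280 and 1, Lonp1, was among the 440 (r = -0.48, limma adjusted p = 0.0727). Hspd1 ranked 1101 of 8570 by r, with a limma adjusted p of 0.382. These calls rested on 1 embryo. Without control replicate 3, 10 genes of 8570 were called, 7 in the same direction and 3 in the opposite, no member was among them, and r of Lonp1 with Hspe1 was -0.10. Spearman's rho of Hspe1 and Lonp1 over all 31 embryos was -0.18 (permutation p = 0.328, adjusted p = 0.670), so the relation of these genes was carried by the embryo that had the highest Hspe1 and the lowest Lonp1.

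The 5 genes whose pattern was most like that of Hspe1 were Zfp277 (r = 0.77), Pigf (0.74), Cenpx (0.73), Hpf1 (0.72) and Uqcrh (0.72), over 31 embryos with group means removed. Uqcrh encodes a subunit of respiratory complex III and Pigf an enzyme of GPI anchor synthesis. Without control replicate 3 their r was 0.69, 0.60, 0.61, 0.64 and 0.60 in the same order. Of the 280 genes called in the same direction as Hspe1, the 277 with a length had a median of 2981 exon bases, beside 4691 for all tested genes with a length. Hspe1 itself has 1474, and the part of gene length in these calls was not tested.

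**Figure D4:**
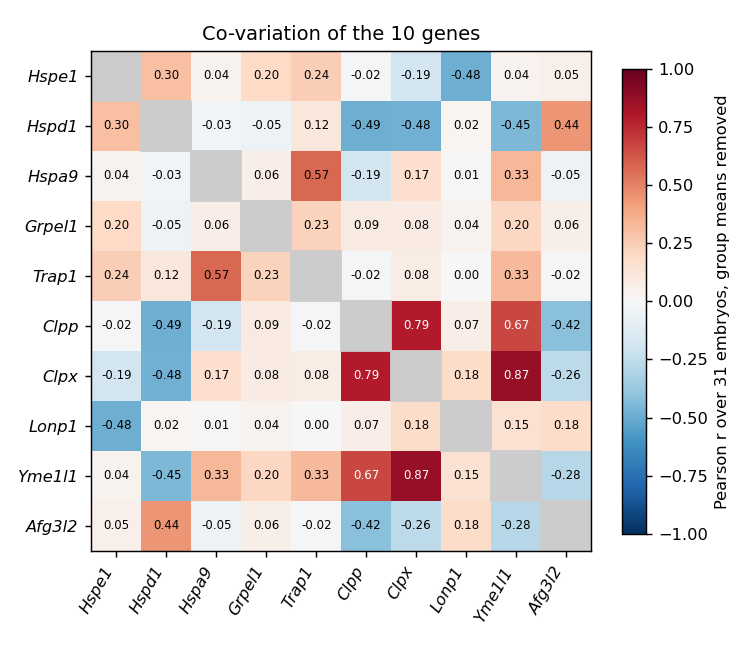
Pearson r of log2 CPM between each pair of genes over 31 embryos after removal of the group means (red positive, blue negative, own pairs in grey). The protease genes Clpx, Yme1l1 and Clpp form the block of high values, from 0.67 to 0.87, and Hspd1 is negatively related to each of them, from -0.45 to -0.49.

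By Pearson r, the strongest relations within the set were between proteases. Clpx and Yme1l1 had r = 0.87 and rho = 0.74, Clpx and Clpp had r = 0.79 and rho = 0.71, and Clpp and Yme1l1 had r = 0.67 and rho = 0.48. Hspa9 and Trap1 had r = 0.57 and rho = 0.42. Their r was 0.74 within control embryos (permutation p = 0.00089, n = 16) and 0.11 within SER embryos (permutation p = 0.685, n = 15), a difference that was not tested. It was 0.40 over both groups without control replicate 12, the lowest embryo for both genes, and SER replicate 14. Hspd1 was negatively related to 3 of the 5 proteases, with r = -0.49 and rho = -0.49 for Clpp, r = -0.48 and rho = -0.60 for Clpx, and r = -0.45 and rho = -0.51 for Yme1l1. With Lonp1 it had r = 0.02 and rho = 0.24, and with Afg3l2 r = 0.44 and rho = 0.41. Adjusted over the 46 relations, the permutation p of r was 0.00023 for Clpx with Yme1l1 and with Clpp, 0.00107 for Clpp with Yme1l1 and 0.0103 for Hspa9 with Trap1, and that of rho was 0.00046, 0.00046, 0.0476 and 0.0977. For Hspd1 the adjusted permutation p of r was 0.0503 with Clpp and Clpx and 0.0628 with Yme1l1 and Afg3l2, and that of rho was 0.0476, 0.00721, 0.0468 and 0.0977 in this order. Control replicate 4 and SER replicate 15 held the lowest Clpx, at 25.7 and 60.8 CPM. They were also the lowest of their groups for Clpp (1.51 and 12.1 CPM) and Yme1l1 (7.54 and 26.5 CPM). The r of Clpp with Yme1l1 was not computed without these embryos, so how far it rests on them was not tested. Without them r was 0.53 for Clpx and Clpp, and 0.75 for Clpx and Yme1l1. With all embryos of a group, r of Clpx and Yme1l1 was 0.90 within control and 0.83 within SER embryos. It was 0.72 in control embryos without control replicates 4 and 1. In SER embryos without SER replicates 15 and 13 it was 0.63. In the estimated cluster of 21 embryos Clpx had r = 0.57 with Clpp and 0.54 with Yme1l1, and in the cluster of 8 it had r = -0.20 with Clpp and 0.80 with Yme1l1. In the cluster of 21, r with Yme1l1 was 0.25 without control replicates 1 and 2. There r with Clpp was 0.55 without SER replicate 4 and control replicate 11.

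Of the 45 pairs of members, 4 (8.89%) had r of at least 0.5 and 5 (11.1%) had r of -0.4 or less. Of all pairs of tested genes, 7.89% and 11.8% did. With all 31 embryos, the r of 0.67 or more seen for 3 of the 45 pairs was reached by 2.12% of all pairs. The r of Clpx and Yme1l1 was reached by 0.0905%. Among these 3 pairs, Clpx and Clpp had r = 0.53 without control replicate 4 and SER replicate 15. In the limma fit with Clpx in place of Hspe1, chosen after the relations were seen, 2809 of 8570 genes (32.8%) varied with Clpx in the same direction and 2252 (26.3%) in the opposite direction. Of the 9 other members, 2 were called in the same direction, Yme1l1 and Clpp (limma adjusted p = 5.15e-08 and 4.53e-07), and 1 in the opposite, Hspd1 (limma adjusted p = 0.0171). Beside backgrounds of 32.8% and 26.3%, these counts of 2 and 1 in 9 are not a result about the members. Yme1l1 ranked 48 and Clpp 420 of 8570 by r with Clpx. Without control replicate 4 and SER replicate 15, Yme1l1 ranked 47 and Clpp 950. In that fit 1878 of 8570 genes varied with Clpx in the same direction and 1660 in the opposite direction. All 3 members were still called, and Hspa9 was called as well, in the same direction (limma adjusted p = 0.0793). These member counts, 3 and 1 of 9, are given beside that background without a reading.

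**Figure D5:**
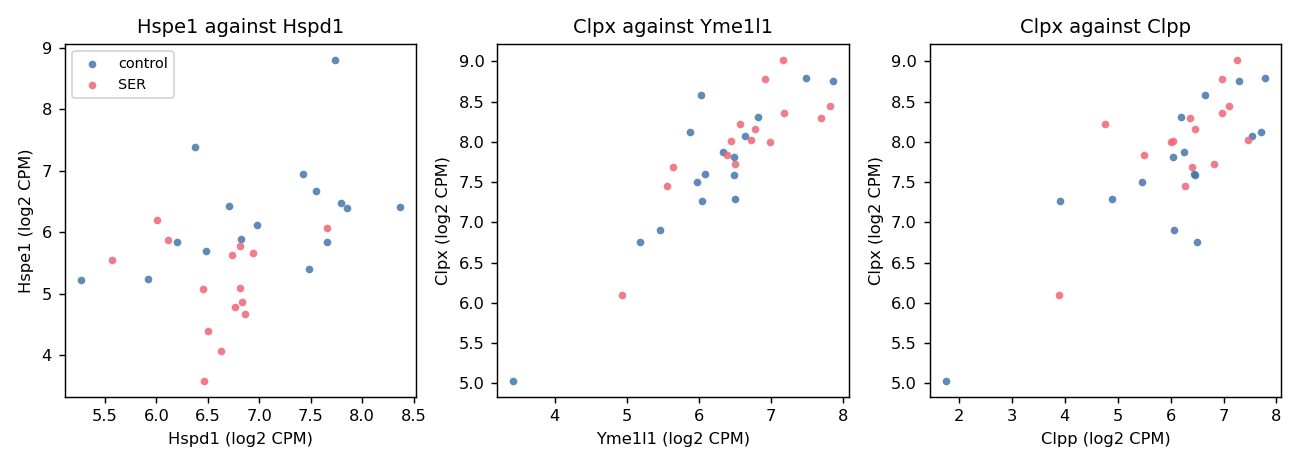
Log2 CPM of Hspe1 against Hspd1 (left), of Clpx against Yme1l1 (middle) and of Clpx against Clpp (right), 1 point per embryo (16 control in blue, 15 SER in red). The left panel has no clear slope within SER embryos, and in the other panels control replicate 4 and then SER replicate 15 are lowest in Clpx.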

How the data were processed

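The deposited table held raw counts per gene for 31 single-embryo Smart-seq3 libraries. The authors aligned reads with STAR to mm10, kept unique alignments of 5′ reads, removed duplicates with UMI tools and Picard, and counted with featureCounts. Versions and strand setting were not given in the sources used here. No column was left unassigned.

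Counts were filtered (filterByExpr, minimum count 10, total 15), scaled by TMM and tested with edgeR 4.0.16 (R 4.3.3), Benjamini-Hochberg adjusted p under 0.1. The methods of the study name ComBat-seq and DESeq2, and with no batch per embryo the former could not be applied. Spread and co-variation were tested with limma 3.58.1 on log2 CPM with a prior count of 2. DESeq2 1.42.0, sva 3.50.0 and the other alternatives are described in the closing section. Scripts were tested on simulated data, in which edgeR called 28% of 2-fold and 88% of 4-fold changes. For spread only an SD lower 8-fold was simulated (197 of 200 genes called), so detection of smaller differences in spread was not tested. CPM values per embryo used the raw total. RPKM divided these by exon length in GENCODE vM21, matched for 20013 of 20544 symbols. Promoter windows came from RefSeq on GRCm38.p6, without chromosome 18. Embryos were split by k-means into 3 clusters, a number that was set and not estimated, from the 1000 most variable genes after removal of the group means. Libraries were labelled as separate embryos, and no pair was identical.

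The members and gene lists were chosen with earlier results of these data known. Outside the members, the text names in each role the tested gene with the highest and the lowest log2 fold change, those past the threshold of edgeR or DESeq2, the 5 genes most like Hspe1, and genes that can share reads with members. Replicate numbers were shared between groups. The labels do not say whether they mark pairs, and the main fits did not pair the embryos.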

Additional observations from a re-analysis of the deposited data

How the results depend on the processing

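The count of genes called between SER- and control-generated embryos depended on the method. It was 0 with size factors in place of TMM, a stricter filter, the replicate block, library size as a covariate, and in each of the 31 fits without 1 embryo. It was 504 with no filter (of 17803), 49 with DESeq2, 848 with limma voom and sample weights, 41 with the 3 clusters as a term, 61 with 5 surrogate variables and 5 after thinning every library to 532945 counts. The wider proteostasis list had 0 called under the first group of settings and after thinning, where 23 could be tested, and 2, 3, 5, 1 and 2 under the others in the same order. The cause was not tested. Of the members, Hspe1 was called under 4 of these settings (no filter, DESeq2, voom, clusters), and Hspd1, Afg3l2, Clpx and Yme1l1 with voom. Of all 8571 tested genes voom called 848 and the fit with clusters 41. The member calls are given without a reading, since the set was chosen on this contrast.

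Under the 10 settings the log2 fold change of Hspe1 ran from -1.38 to -0.77 (5 surrogate variables), and that of Hspd1 from -0.76 to -0.14 (5 surrogate variables). With library size as a covariate they were -1.27 and -0.18. Hspa9, Trap1, Clpx, Yme1l1 and Afg3l2 kept their direction under all 10, Lonp1 under 9, Clpp under 7 and Grpel1 under 4. All 420 alternative values of the members moved by less than 1 SD between embryos. This is a wide bound, since for each member that SD was larger than the SE of its log2 fold change. Within it Clpp moved from -0.05 (SE 0.37) to 0.63 with voom. No gene passed for a difference in spread by limma under any of 5 other settings. None passed under 3 more added after seeing the data, which left out control replicate 3, control replicate 4, or both with SER replicate 15. These had 220, 312 and 344 genes at an unadjusted p under 0.05. Genes varying with Hspe1 numbered 1583 with the clusters as a term and 503 to 1051 under the others planned, and 10 without control replicate 3, an alternative chosen after seeing the data. Those varying with Clpx fell from 5061 to 3538 without control replicate 4 and SER replicate 15.

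The r of Hspe1 with Hspd1 ran from 0.21 to 0.36 when each embryo was left out, reaching a permutation p of 0.0494 without control replicate 1. It was -0.0083 within SER embryos (permutation p = 0.977), a split added after seeing the data. With the replicate number as a block the log2 fold change of Hspe1 was -1.16. Same-numbered embryos had correlated deviations over 0.1 in 8 of 15 pairs (-0.37 to 0.49), and 4 of 15 control embryos correlated best with their own number. These counts cannot decide whether the numbers mark pairs or a shared batch, since they were not set against those of unrelated numbers. Depth limits Trap1 and Clpp most, with fewer than 10 counts in 3 and 2 embryos.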

Other observations

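The cytosolic chaperonin TRiC, which folds actin and tubulin by the same principle as the mitochondrial chaperonin, was read for comparison. All 8 of its subunits passed the filter, 5 with a higher and 3 with a lower estimate in SER-generated embryos, and 0 were called by edgeR. Their median log2 fold change was 0.10, from 0.27 (SE 0.31) for Tcp1 to -0.08 (SE 0.39) for Cct4. Their summed level ran from 456 through a median of 1291 to 2267 CPM in control and from 521 through 1640 to 2122 CPM in SER embryos, so the groups overlapped over nearly the whole range.

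The 5 proteostasis genes that did not pass the filter were named after their values were seen. Oma1, the stress-activated protease of the inner membrane, had medians of 0.635 CPM in control and 3.44 CPM in SER embryos. Immp2l was at a median of 0 in both groups, and Dele1, the relay from Oma1 to Eif2ak1, had a median of 0 in control and 0.435 CPM in SER embryos. Dnajc19, of the import motor, had medians of 5.21 and 4.17 CPM, and Cebpb, a transcription factor, of 0.488 and 0 CPM. None of the 5 was tested.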
